A study of Sus scrofa with 36 samples.

Results

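The genes described here are 10 regulators associated with, but not all particular to, the naive state of pluripotency in mouse or human: KLF2, KLF4, KLF5, TFCP2L1, ESRRB, NR5A2, TBX3, PRDM14, DPPA3 and TFAP2C. They were chosen by name, and all 10 were found among the 20683 genes of the deposited tables of bulk RNA-seq from pig (Sus scrofa) cells. The tables cover 36 libraries in 11 groups. One set holds pig fibroblasts (n = 4) and 3 undifferentiated clonal lines of induced pluripotent stem cells (iPSCs), clone 1 (n = 3), clone 2 (n = 4) and clone 3 (n = 4). The labels give clone 1 the code PiPS-EP1 with minusPD, and clones 2 and 3 the code PiPS-EP5 with minusPD and minusA83, none of which they explain. The other set follows a single line, clone 8, with 3 libraries per group. Its undifferentiated cells were taken on day 0 after removal of the mouse feeder layer. On the route to somites, the blocks of trunk mesoderm, cells were taken as mesendoderm on day 1 (E8A100ch3), as presomitic mesoderm (PSM) on day 2 (S1LDN medium) and as somite on day 3 (S2LDN medium). Other groups were labelled endothelial (day 6), beating cardiomyocytes (day 9) and neural progenitors (day 24). The study's title calls the iPSCs transgene-free, and every differentiated group comes from the 1 clone. The labels do not state whether replicate libraries are separate cultures. The p-values below therefore speak only of variation among libraries, part or all of which may be technical.

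In mouse embryonic stem cells, naive pluripotency is held by a circuit in which leukaemia inhibitory factor (LIF) acts through the kinase JAK and the transcription factor STAT3 on KLF4 and TFCP2L1, while TBX3, ESRRB, NR5A2, KLF2 and KLF5 feed into the core factors OCT4, SOX2 and NANOG. PRDM14 represses genes of lineage entry and DNA methylation, DPPA3 (also called STELLA) protects the early embryo's genome from methylation changes, and TFAP2C opens naive enhancers in human cells. Most of these genes also work outside the embryo. KLF4 acts in skin and gut epithelium and in fibroblasts, TBX3 in limb and heart, NR5A2 in liver and pancreas, and TFAP2C in placenta, skin and neural crest, while PRDM14, DPPA3 and TFAP2C return in primordial germ cells.

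Library depth was between 1845333 and 69879325 estimated counts, with at least 24314241 in clones 1 to 3 and at most 9727315 in clone 8, so genes of low level were measured less precisely in clone 8. Levels are given as TPM, a library's transcript share corrected for length. The summed level of the pluripotency markers POU5F1, NANOG, SOX2 and LIN28A was 1901 to 2446 TPM in the 14 undifferentiated libraries and 0.46 to 4.3 TPM in fibroblasts. A pair of libraries went against their labels. The library labelled cardiomyocyte replicate 2 held 43.5 TPM of 6 cardiomyocyte markers, against 13275 and 12147 TPM in cardiomyocyte replicates 1 and 3, and 5338 TPM of 6 neural progenitor markers. The library labelled neural progenitor replicate 1 held 13377 TPM of the cardiomyocyte markers and 96.8 TPM of the neural markers, against 6208 and 5404 TPM of the latter in replicates 2 and 3. Since all clone 8 groups share one estimate of the spread, these 2 libraries touch every clone 8 comparison. Counts of members called are given with both and without both, and values of single genes with both unless stated. Fibroblast libraries 1 and 2 also differed from libraries 3 and 4 in depth and in several genes named below, and clone 3 replicates 2 and 3 were closer to each other (chi-square per degree of freedom 4.998) than other clone 3 pairs (44.6 to 66.8).

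The 10 genes divided between the cell types, and neither fibroblasts nor iPSCs held the full set. At a mean of at least 1 TPM, fibroblasts held KLF2, KLF4, KLF5, TFCP2L1, NR5A2 and TBX3. The 4 iPSC clones held KLF4, KLF5, PRDM14, DPPA3 and TFAP2C, and TBX3 passed that level in clone 2 and clone 8. KLF2, TFCP2L1, ESRRB and NR5A2 stayed under it in every iPSC clone. Against fibroblasts, clones 1 to 3 were higher in 4 genes and lower in 6, by edgeR's quasi-likelihood test with Benjamini-Hochberg adjustment over all genes tested. Of all genes tested 38.6% were higher and 35.9% lower, so a call by itself sets no member apart, and the sizes below carry the description. In bulk RNA, fewer cells of a type and less RNA per cell cannot be told apart.

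**Figure D1:**
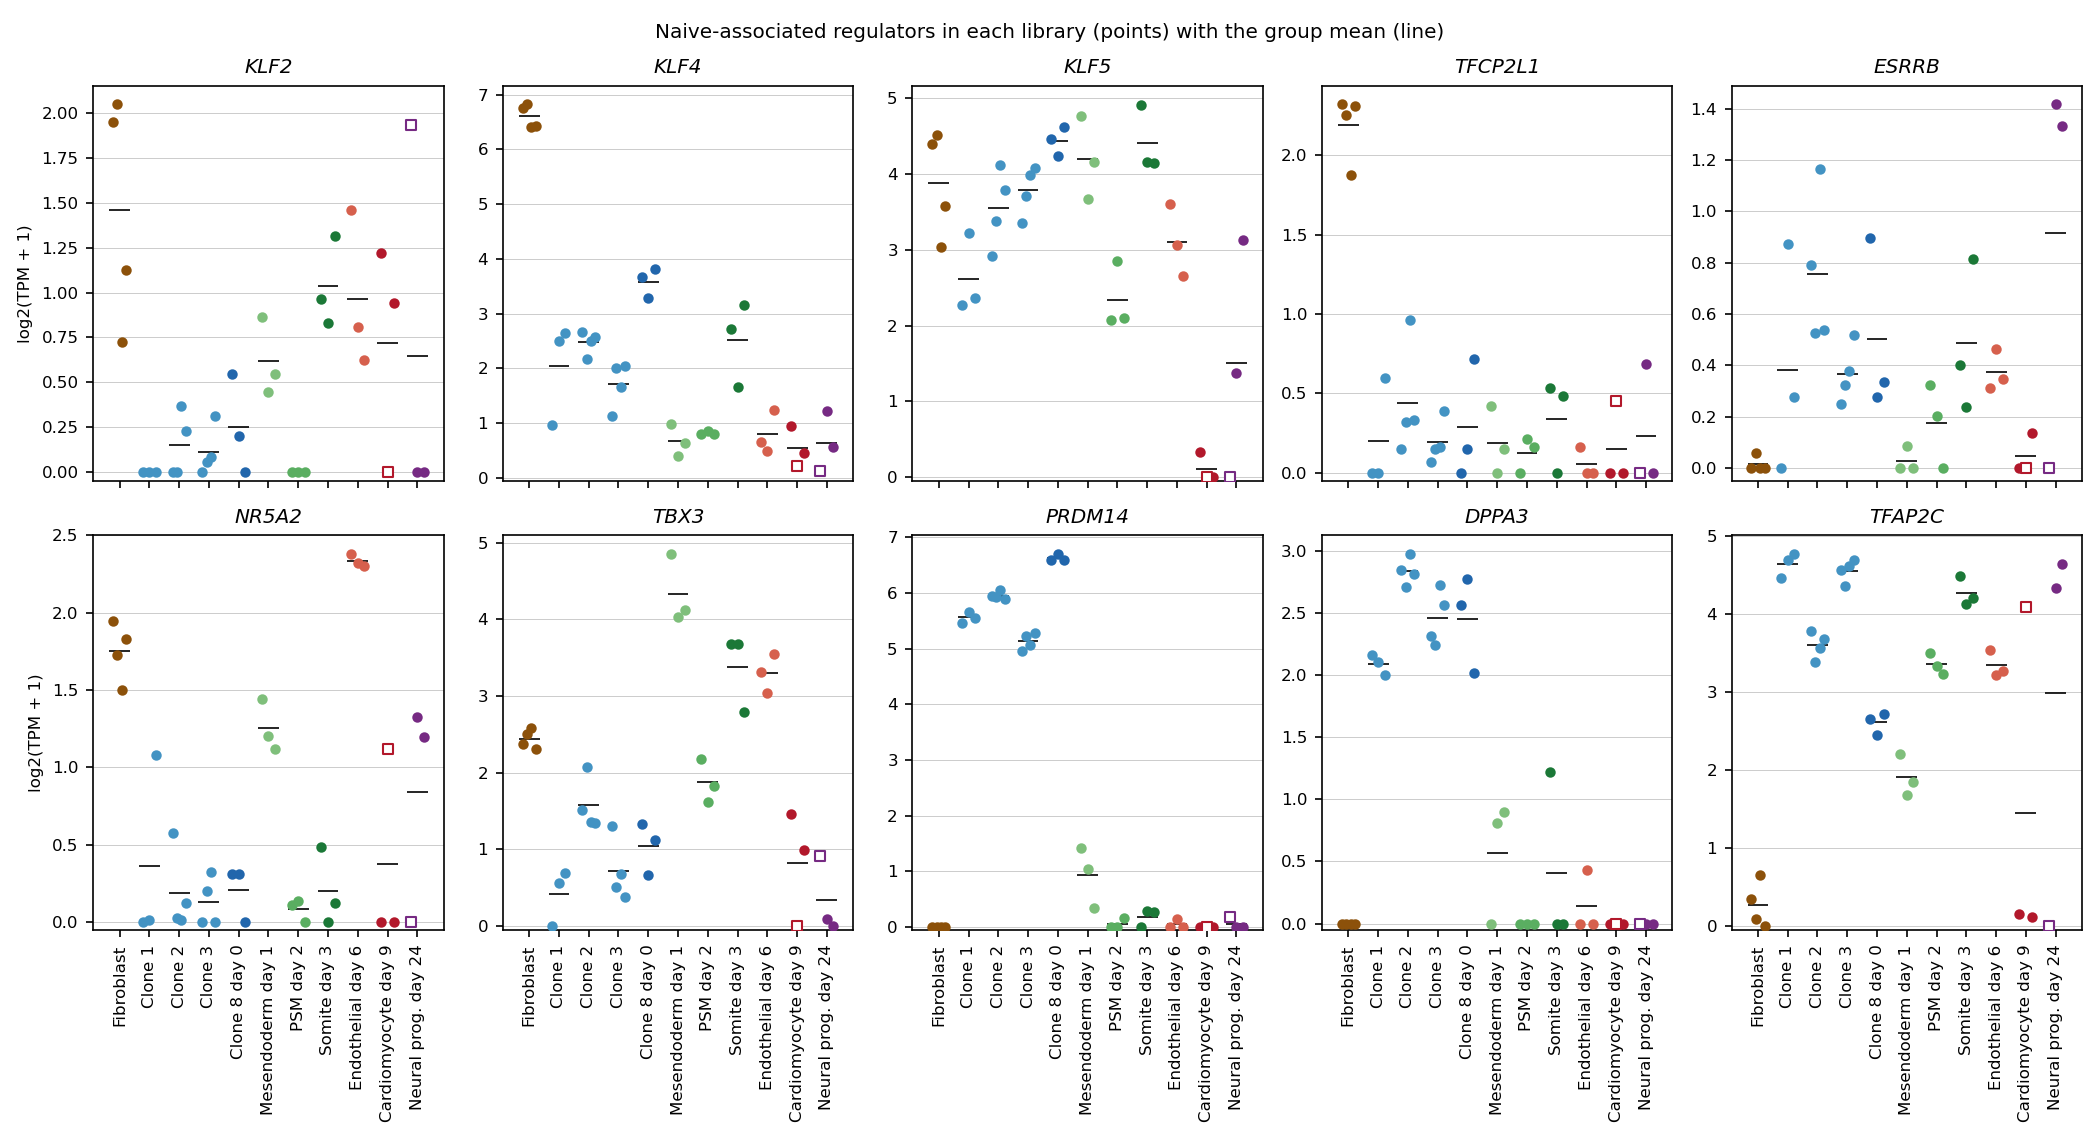
Level of each regulator in all 36 libraries, as log2(TPM + 1) on axes that differ between genes. Points are libraries, lines are means of the plotted values over all libraries of a group, and open squares are the libraries labelled cardiomyocyte replicate 2 and neural progenitor replicate 1. PRDM14 is seen at 30.1 to 103.2 TPM in undifferentiated clones and at 1.66 TPM or less elsewhere, while KLF4 is highest in fibroblasts.

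PRDM14 (gene 100519142, chromosome 4, 65273988 to 65295362 on Sscrofa11.1), a PR-domain repressor, was the most abundant of the 10 in every iPSC clone. It stood at 43.0, 49.8 and 46.0 TPM in clone 1, at 60.8, 59.7, 65.0 and 58.3 TPM in clone 2, and at 30.1, 36.6, 32.4 and 37.7 TPM in clone 3. Clone 8 held 95.0, 103.2 and 95.9 TPM on day 0. The 4 clones did not overlap, and all 4 fibroblast libraries were at 0. Set against a floor of 3 counts over the fibroblast group, the level was at least 1160-fold higher in clones 1 to 3 (adjusted p = 1.08e-13) and at least 2317-fold higher in clone 8 (1.7e-15). These bounds cover counting error only, and clone 8 belongs to the other set, so its level was not tested against clones 1 to 3.

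DPPA3 (gene 100511328, chromosome 5, 62861492 to 62868131), the maternal and germ cell factor, was also present in every undifferentiated library, at a lower level. By mean TPM clone 2 was highest and clone 1 lowest. No pair of clones 1 to 3 passed by edgeR (adjusted p = 0.365 for clones 1 and 2, 0.590 for 1 and 3, 0.861 for 2 and 3). Clone 8 was not tested against them. DPPA3 stood at 3.46, 3.31 and 3.00 TPM in clone 1, 6.20, 5.53, 6.87 and 6.02 in clone 2, and 3.96, 3.74, 5.61 and 4.90 in clone 3. Clone 8 on day 0 held 4.92, 5.83 and 3.05 TPM, and the fibroblasts were at 0 in 4 of 4 libraries. The fold over the fibroblast floor was at least 69.6 in clones 1 to 3 (adjusted p = 1.89e-07) and at least 65.7 in clone 8 (1.85e-05). Over the 11 group means of log2(TPM + 1), DPPA3 and PRDM14 correlated at r = 0.983, the highest value among pairs of members, given as a description, since groups within a set share a range of depth and the clone 8 groups share a line.

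TFAP2C (gene 100144525, chromosome 17, 57164400 to 57174923), an AP-2 transcription factor, was present in all undifferentiated libraries but was not confined to them. Clone 1 held 21.1, 24.9 and 26.4 TPM, clone 2 held 12.8, 9.44, 10.8 and 11.8 TPM, and clone 3 held 22.8, 19.5, 23.5 and 24.8 TPM. Clone 8 held 5.32, 4.47 and 5.61 TPM on day 0, below every library of clones 1 to 3, a difference across sets that was not tested. Fibroblasts held 0.27, 0.06, 0.57 and 0 TPM. The difference from fibroblasts was 6.29 ± 0.37 on the log2 scale (± SE) in clones 1 to 3 (adjusted p = 5.28e-11) and 4.11 ± 1.02 in clone 8 (0.000912). Its highest levels in clone 8 were in somite and neural libraries, described below with the time course.

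KLF4 (gene 595111, chromosome 1, 248604817 to 248609574), a Krüppel-like zinc finger factor and one of the classical reprogramming factors, went the other way. Fibroblasts held 107, 112, 84.0 and 85.0 TPM. Clone 1 held 0.95, 4.66 and 5.30 TPM, clone 2 held 5.38, 3.51, 4.67 and 4.95 TPM, and clone 3 held 1.2, 3.01, 2.17 and 3.14 TPM. Clone 8 stood above these clones, at 11.7, 8.72 and 13.1 TPM, and still far under every fibroblast library. KLF4 was lower than in fibroblasts by 4.96 ± 0.28 on the log2 scale in clones 1 to 3 and by 3.57 ± 0.50 in clone 8 (adjusted p = 2.67e-11 and 4.45e-07).

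KLF2 (gene 100174959, chromosome 2, 61270733 to 61273037), a close relative of KLF4, was near the limit of detection in iPSCs. It was at 0 in the 3 libraries of clone 1 and reached 0.29 TPM in clone 2, 0.24 in clone 3 and 0.46 in clone 8. Fibroblast libraries 1 and 2 held 2.86 and 3.14 TPM and libraries 3 and 4 held 0.65 and 1.18 TPM. The log2 fold change was -5.93 ± 1.07 in clones 1 to 3 (adjusted p = 0.000126) and -3.71 ± 1.5 in clone 8 (0.0337). The call for clone 8 was lost with fibroblast libraries 3 and 4 alone (0.245), without fibroblast replicate 1 (0.0571) or 2 (0.0601), and without day 0 replicate 2 (0.1) or 3 (0.121).

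KLF5 (gene 100038005, chromosome 11, 45370009 to 45386673), which in the mouse blastocyst favours inner cell mass and trophectoderm over primitive endoderm, was shared by both cell types. Fibroblasts held 19.98, 21.8, 7.19 and 10.9 TPM. Clone 1 held 3.84, 8.29 and 4.17 TPM, clone 2 held 6.54, 9.39, 16.4 and 12.8, and clone 3 held 9.20, 12.1, 14.9 and 15.97. The groups overlapped, and the log2 fold change of clones 1 to 3 was -0.86 ± 0.32 (adjusted p = 0.0210). That call rested on fibroblast libraries 1 and 2: it was 0.095 (adjusted p = 0.852) with libraries 3 and 4 alone, -0.65 (0.113) without replicate 1 and -0.57 (0.153) without replicate 2, and limma on log2(TPM + 1) did not call it (0.0842). In clone 8 on day 0 KLF5 stood at 21.1, 17.8 and 23.5 TPM and did not pass against fibroblasts (-0.00078 ± 0.55, adjusted p = 1.0); the sign differed with fibroblast libraries 3 and 4 alone (0.84) and on log2(TPM + 1) (0.56).

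TFCP2L1 (gene 100519339, chromosome 15, 30072142 to 30131810), a CP2 family factor that in mouse carries much of the LIF signal, was higher in fibroblasts. They held 3.99, 3.76, 2.66 and 3.96 TPM. In 14 undifferentiated libraries its highest level was 0.95 TPM, in clone 2 replicate 3, and the groups did not overlap. The log2 fold change was -4.21 ± 0.76 in clones 1 to 3 and -4.29 ± 1.38 in clone 8 (adjusted p = 7.34e-05 and 0.00869). All other groups were at 0.61 TPM or less in each library.

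ESRRB (gene 100151940, chromosome 7, 99511135 to 99699478), an orphan nuclear receptor, passed the test upwards but from very little. Its means were 0.347 ± 0.432 TPM in clone 1 (SD, n = 3), 0.715 ± 0.375 in clone 2 (n = 4), 0.293 ± 0.102 in clone 3 (n = 4) and 0.443 ± 0.362 in clone 8 on day 0 (n = 3). Fibroblasts had 0.04 TPM in replicate 2 and 0 in the others, and clone 1 replicate 2 was also at 0. On summed counts the ratio to fibroblasts was 51.1 in clones 1 to 3 (95% counting interval 14.1 to 423; adjusted p = 0.00338) and 41.5 in clone 8 (10.4 to 361; 0.00812). The clone 8 call was lost without day 0 replicate 1 (0.0566). The highest libraries were neural progenitor replicates 2 and 3, at 1.67 and 1.52 TPM.

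NR5A2 (gene 100523688, chromosome 10, 22727865 to 22866905), a nuclear receptor that in mouse can drive POU5F1, was lower in iPSCs than in fibroblasts. Fibroblasts held 2.85, 2.30, 1.83 and 2.56 TPM. Among undifferentiated libraries it was 1.11 TPM in clone 1 replicate 4, 0.49 TPM in clone 2 replicate 1 and at most 0.25 TPM in the others. The log2 fold change was -4.10 ± 0.98 for clones 1 to 3 (adjusted p = 0.00110) and -4.38 ± 1.60 for clone 8 (0.0186), the latter lost without day 0 replicate 2 (0.0533) or 3 (0.0757).

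TBX3 (gene 100152741, chromosome 14, 37582704 to 37596767), a T-box factor, was also lower in iPSCs than in fibroblasts, which held 4.21, 4.69, 4.99 and 3.94 TPM. Clone 1 held 0, 0.48 and 0.61 TPM and clone 3 held 1.46, 0.42, 0.60 and 0.30 TPM. Clone 2 was above clone 1 in every library, at 1.86, 3.20, 1.57 and 1.55 TPM, but this contrast did not pass by edgeR (adjusted p = 0.0682). Clone 8 on day 0 held 1.52, 0.59 and 1.18 TPM. The log2 fold change from fibroblasts was -2.62 ± 0.50 for clones 1 to 3 and -2.52 ± 0.83 for clone 8 (adjusted p = 0.000153 and 0.00932), and the latter was 0.0504 without day 0 replicate 2.

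**Figure D2:**
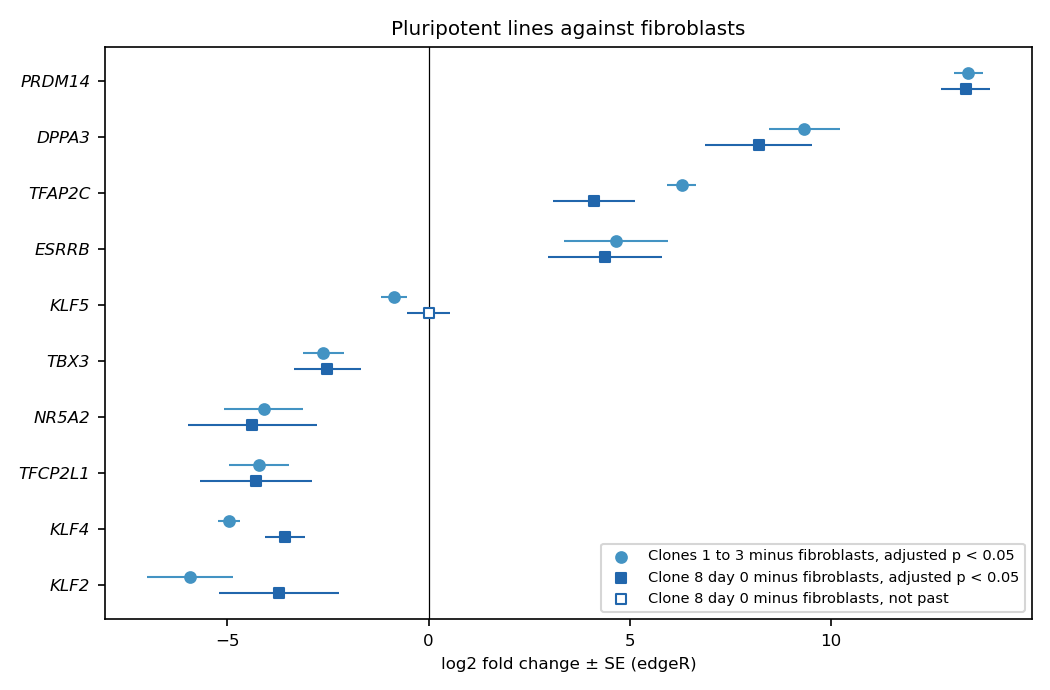
Log2 fold change ± SE (edgeR) of each regulator against the same 4 fibroblast libraries, for clones 1 to 3 (circles) and clone 8 on day 0 (squares), with open symbols where the adjusted p was 0.05 or more. PRDM14, DPPA3, TFAP2C and ESRRB lie to the right of 0 and the other genes to the left, with KLF5 of clone 8 at 0 on this scale; fitted changes of PRDM14 and DPPA3 depend on the prior count because fibroblasts are at 0.

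Clone 8 on day 0 was higher than fibroblasts in 4 members and lower in 5 (34.8% and 28.2% of all genes tested), and the counts were the same without the 2 libraries that go against their labels (37.9% and 31.2%). Both comparisons use the same fibroblast libraries, so their likeness is not independent evidence, and their values are given side by side. Within the undifferentiated clones few members differed. TFAP2C was 24.1 ± 2.74 TPM in clone 1 and 22.7 ± 2.26 in clone 3 against 11.2 ± 1.45 in clone 2. Clone 1 was 1.27 ± 0.27 above clone 2 on the log2 scale (adjusted p = 0.0107) and clone 2 was 1.19 ± 0.26 below clone 3 (log2 fold change -1.19, 0.0121). TFAP2C was the 1 member of 10 called between clones 1 and 2, where 4.47% of all genes were higher and 4.84% lower, and limma on log2(TPM + 0.1) did not call it (0.13). Between clones 2 and 3, with 2.06% of all genes higher and 2.16% lower, PRDM14 was also called, higher in clone 2 by 0.65 ± 0.14 (0.0132). The PRDM14 call was lost without clone 2 replicate 3 (0.0524) or clone 3 replicate 3 (0.0602), and that of TFAP2C without clone 2 replicate 2 (0.0547) or 3 (0.0575) and on log2(TPM + 0.1) (0.207). Clone 1 against clone 3 gave 0 calls by edgeR and by limma, with 3.12% of all genes higher and 3.58% lower, although KLF5 and PRDM14 had an unadjusted p under 0.05 and DESeq2 called both (0.0328 and 0.0106). KLF4 did not pass between any pair of clones.

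On the way to somites the members did not move together. On day 1, where the summed level of the mesendoderm genes T, MIXL1 and EOMES was 634 to 1094 TPM against 16.3 to 26.3 on day 0, PRDM14 and KLF4 fell and TBX3 rose. PRDM14 stood at 1.66, 1.05 and 0.26 TPM, a log2 fold change of -6.43 ± 0.64 (adjusted p = 1.32e-05). KLF4 stood at 0.99, 0.32 and 0.55 TPM (-3.99 ± 0.71, 0.00125). TBX3 reached 28.0, 15.4 and 16.4 TPM, its highest level in any group (4.39 ± 0.90, 0.00382). The summed pluripotency markers were 1293 to 1419 TPM, against 1931 to 2137 on day 0, but the genes differed. Means of POU5F1 and LIN28A were 616 and 726 TPM, against 717 and 1068 on day 0. Those of SOX2 and NANOG fell to 2.37 and 8.74 TPM, from 174 and 68.8. The 6 hypoblast and endoderm markers (4 at 1 TPM or more, AFP at 0) summed to 227 to 486 TPM against 22.2 to 49.0 on day 0. The 6 endothelial markers (1 at 1 TPM or more) summed to 94.8 to 163 TPM against 5.71 to 10.8. That rise was KDR, at a mean of 122 against 3.07 TPM. Means of PECAM1, TEK, TIE1 and VWF were lower than on day 0, and CDH5 stayed under 1 TPM. The part of cells with such markers in the levels of TBX3 and NR5A2 was not tested.

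Of 8 members tested 1 was higher and 2 lower on day 1, where 5.53% and 7.16% of all genes were. KLF2 and TFCP2L1 fell under the filter on low counts in clone 8. Without the 2 libraries that go against their labels, the counts were 2 higher and 5 lower, with 17.9% and 19.5% of all genes. The added calls were NR5A2, higher at 1.72, 1.30 and 1.17 TPM against 0.24, 0.24 and 0 (3.48 ± 0.64, adjusted p = 0.000196), and DPPA3, TFAP2C and ESRRB, lower. DPPA3 stood at 0, 0.75 and 0.86 TPM (-2.78 ± 0.93, 0.0240) and TFAP2C at 3.63, 2.19 and 2.60 TPM (-0.66 ± 0.22, 0.0227). KLF5 held its level of day 0 within the spread, at 26.2, 11.7 and 16.9 TPM (0.010 ± 0.70, adjusted p = 1.0).

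On day 2, in cells with 127 to 200 TPM of the PSM genes TBX6, MSGN1 and HES7, no member reached a mean of 10 TPM. TBX3 fell to 3.54, 2.08 and 2.55 TPM (-2.85 ± 0.84, adjusted p = 0.0482), and PRDM14 was 0.12 TPM in replicate 3 and 0 in the others. On summed counts PRDM14 was 0.0575 times its day 1 level (95% counting interval 0.00139 to 0.357; adjusted p = 0.0211). These were the 2 calls of 8, both lower, where 3.94% of all genes were higher and 3.45% lower. Neither call was stable when 1 library was left out. TBX3 was lost without any 1 of the 6 libraries (0.092 to 0.186), and PRDM14 without replicate 1 or 2 of either day (0.0562 to 0.0868). Calls over all genes then also fell, from 1053 to between 526 and 693. Both members were called without the 2 libraries that go against their labels (1.34e-07 for TBX3 and 0.00357 for PRDM14). Without the 2 libraries that go against their labels, 4 members were lower and 1 higher, with 11.5% and 12.3% of all genes. KLF5, at 3.21, 6.20 and 3.27 TPM, was then lower (-2.08 ± 0.40, 0.000394), as was NR5A2 (-4.77 ± 0.82, 0.000139), and TFAP2C was higher at 10.4, 9.09 and 8.41 TPM (1.74 ± 0.22, 2.23e-06). The 4 trophectoderm markers (3 at 1 TPM or more) summed to 78.1 to 143 TPM against 16.8 to 40.4 on day 1, but they went different ways. Most of the rise was CDX2, at a mean of 74.1 against 1.90 TPM, and TEAD4 was at 29.6 against 17.6. GATA3 was lower, at 1.81 against 6.52 TPM, as was GATA2, at 0.183 against 0.387. The part of cells with such markers in the level of TFAP2C was not tested.

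On day 3 the 4 somite markers summed to 23.9 to 32.2 TPM, against 17.5 to 20.2 on day 2 and 29.5 to 37.3 in the endothelial group. Most of the rise from day 2 was FOXC2, at a mean of 14.1 against 1.76 TPM. MEOX1 was at 2.22 against 1.08 and PAX3 at 0.847 against 0.153, while TCF15 was lower, at 11.7 against 15.8. The levels of KLF4, KLF5, TBX3 and TFAP2C were above those of day 2 in every library. KLF4 rose to 5.61, 2.18 and 7.88 TPM (2.56 ± 0.68, adjusted p = 0.0116), the 1 call of 8 where 12.5% of all genes were higher and 11.2% lower, and it was lost without somite replicate 3 (0.0515). Without the 2 libraries that go against their labels, 4 of 8 were higher and 0 lower, with 25.4% and 23% of all genes. KLF5 stood at 29.2, 16.9 and 16.8 TPM (2.06 ± 0.40, 0.000193), TBX3 at 11.9, 11.8 and 5.91 TPM (1.63 ± 0.30, 0.0001) and TFAP2C at 21.4, 16.5 and 17.4 TPM (0.76 ± 0.20, 0.00323). KLF2 was at 0 in all PSM libraries and at 0.95, 0.78 and 1.49 TPM in somite cells, at least 5.07-fold above the PSM floor, and was not tested. PRDM14 and ESRRB did not pass on day 3, and both stayed under 1 TPM. Sums of markers of other cell types were also higher than on day 2. The 6 fibroblast markers, all at 1 TPM or more, summed to 416 to 643 TPM against 36.8 to 58.9. The 6 cardiomyocyte markers (5 at 1 TPM or more) summed to 270.2 to 302 TPM against 21.2 to 65.2, and the 6 neural markers (3 at 1 TPM or more) to 259 to 362 against 53.7 to 76.7. Their part in the levels of KLF4, KLF5, TBX3 and TFAP2C was not tested.

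**Figure D3:**
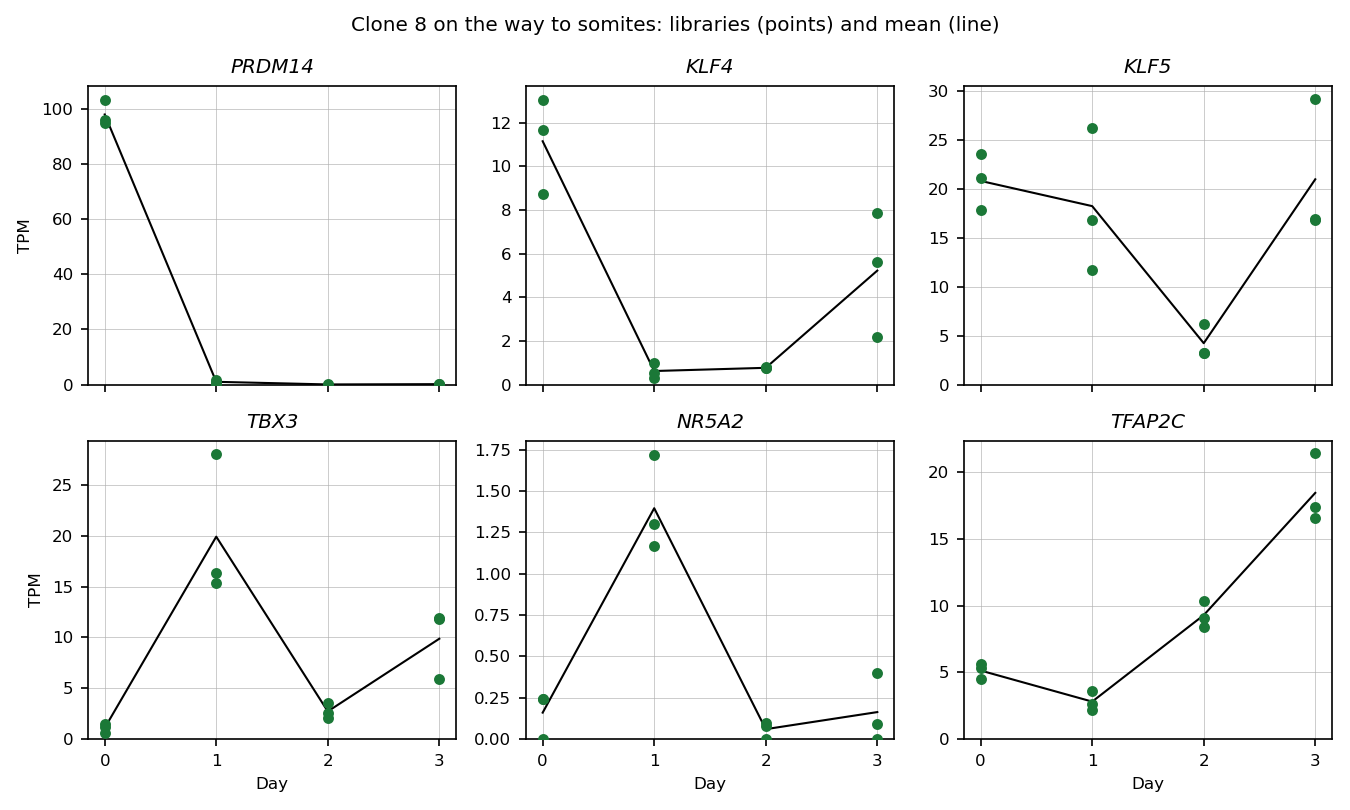
Level in TPM (each axis from 0) of 6 regulators in clone 8 on days 0 to 3, with points for the 3 libraries per day and a line through their means. PRDM14 stays near 0 from day 1, TBX3 has its peak on day 1, KLF4 and KLF5 are higher on day 3 than on day 2, and TFAP2C is lowest on day 1 and highest on day 3.

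The endothelial group, with 565 to 642 TPM of 6 endothelial markers against 5.71 to 10.8 on day 0, held more NR5A2 and TBX3 than undifferentiated clone 8. NR5A2 stood at 4.21, 3.99 and 3.92 TPM, its highest level in any group, with no overlap with the fibroblasts next in order (4.89 ± 1.34 against day 0, adjusted p = 0.0162). TBX3 stood at 8.92, 7.24 and 10.7 TPM (3.08 ± 0.86, 0.0178). KLF4 fell to 0.57, 0.41 and 1.37 TPM (-3.73 ± 0.69, 0.00112). PRDM14 was 0.11 TPM in replicate 2 and 0 in the others, 0.000486 times its day 0 level on summed counts (95% counting interval 1.23e-05 to 0.00271; 8.53e-07). DPPA3 also fell, to 0.35 TPM in replicate 2 and 0 in the others (0.0420), 0.0343 times its day 0 level on summed counts (95% counting interval 0.00407 to 0.129), a call lost without any 1 of the 6 libraries (0.0737 to 0.143), under DESeq2 (0.199) and with the replicate number as a block (0.0656).

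The calls were 2 higher and 3 lower of 8 (11.6% and 7.76% of all genes). The call of NR5A2 was lost without day 0 replicate 2 (0.0657) or 3 (0.0739), and that of TBX3 without any day 0 replicate (0.0502 to 0.0891) or without endothelial replicate 3 (0.0528). Without the 2 libraries that go against their labels, 3 were higher and 4 lower (24.3% and 20.8% of all genes), with TFAP2C higher at 10.6, 8.33 and 8.63 TPM (0.86 ± 0.21, 0.00173) and KLF5 lower at 11.2, 7.33 and 5.27 TPM (-1.42 ± 0.37, 0.00321). In the same fit NR5A2 (adjusted p = 1.42e-06), TBX3 (5.65e-08) and DPPA3 (0.00235) were called as well, each with a smaller adjusted p than with all libraries. The endothelial libraries also held genes listed here as markers of other cell types. All 4 surface ectoderm and neural crest markers (TFAP2A, TFAP2B, SOX10 and TP63) reached 1 TPM there, with a sum of 34.8 to 44.0 TPM against 0.22 to 1.1 on day 0. The 4 trophectoderm markers summed to 70.2 to 81.0 TPM against 24.0 to 39.3, but they went different ways. CDX2 was at a mean of 25.4 against 0.213 TPM, GATA3 at 23.2 against 4.25 and GATA2 at 5.98 against 0.253. TEAD4 was lower, at 22.1 against 25.6 TPM. The 4 pluripotency markers summed to 573 to 734 TPM, most of it LIN28A, at a mean of 596 TPM against 1068 on day 0. POU5F1 was at 1.59, NANOG at 0.323 and SOX2 at 47.7 TPM, against 717, 68.8 and 174 on day 0. The part of other cell types in the levels of TFAP2C, TBX3 and NR5A2 was not tested.

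In the cardiomyocyte and neural groups the results for TFAP2C, NR5A2 and TBX3 depended on the 2 libraries that go against their labels. TFAP2C was 0.11, 15.98 and 0.08 TPM in the libraries labelled cardiomyocyte replicates 1, 2 and 3, and 0, 19.3 and 24.0 TPM in those labelled neural progenitor 1, 2 and 3. It did not pass in either group with all libraries (-0.12 ± 1.19, adjusted p = 0.947, and 1.08 ± 1.19, 0.483). Without both libraries it was lower than day 0 in cardiomyocytes by 5.19 ± 0.47 on the log2 scale (2.44e-09) and higher in neural progenitors by 1.67 ± 0.23 (1.25e-06). NR5A2 was at 0 in cardiomyocyte replicates 1 and 3 and at 1.17 TPM in the library labelled replicate 2. It stood at 1.51 and 1.29 TPM in neural progenitor replicates 2 and 3, higher than day 0 without both libraries (2.68 ± 0.77, 0.00450). In the same fit TBX3, at 0.07 and 0 TPM in neural progenitor replicates 2 and 3, was lower (-4.44 ± 0.94, 0.000255).

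PRDM14, DPPA3, KLF4 and KLF5 were lower than day 0 in both groups with and without these libraries. PRDM14 was at 0 in all cardiomyocyte libraries, at least 513-fold lower, and 0.13 TPM in the library labelled neural progenitor replicate 1 and 0 in the other two. DPPA3 was at 0 in all libraries of both groups, at least 14.5-fold and 14.1-fold lower. DESeq2 did not call DPPA3 in either group (0.0665 and 0.0750). KLF4 was 0.37 to 0.93 TPM in cardiomyocyte replicates 1 and 3 and 0.49 and 1.34 TPM in neural progenitor replicates 3 and 2. KLF5 was 0.26 and 0 TPM in cardiomyocyte replicates 1 and 3, and 1.60 and 7.75 TPM in neural progenitor replicates 2 and 3; its neural call did not hold when these 2 groups alone were fitted (0.0719). The members lower were 4 of 8 in each group with all libraries (18.8% and 19% of all genes) and 5 of 8 without both (31.4% and 31.8%). None was higher with all libraries, where 22.9% and 23.8% of all genes were; without both, 0 were higher in cardiomyocytes and 2 in neural progenitors (30.3% and 32%). KLF2 was 1.33 and 0.92 TPM in cardiomyocyte replicates 1 and 3, 2.83 TPM in the library labelled neural progenitor replicate 1 and 0 in the neural progenitor replicates 2 and 3.

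Among the 17 Krüppel-like factor genes in the tables, KLF2, KLF4 and KLF5 together made up a minor share of the family's summed TPM. The share was 16.98 ± 3.34% in fibroblasts (SD, n = 4), 5.02 ± 2.58% in clone 1 (n = 3), 7.13 ± 3.09% in clone 2 (n = 4), 10.4 ± 1.5% in clone 3 (n = 4) and 18.9 ± 3.05% in clone 8 on day 0 (n = 3). KLF10, a TGF-beta response gene, was the most abundant in 10 of the 11 groups. KLF7 led in neural progenitor replicates 2 and 3, at a mean of 41.9 TPM. In somite cells KLF6 led, at 172.9 ± 13.8 TPM against 15.1 ± 2.66 on day 2 (3.28 ± 0.23, adjusted p = 9.38e-08). Of 11 other family members tested, 9 were lower in clones 1 to 3 than in fibroblasts and 0 higher, beside 35.9% and 38.6% of all genes. Their median log2 fold change was -2.38 beside 0.11 over all genes. KLF10 stood at 112.7 ± 56.8 against 237.5 ± 63.4 TPM, KLF6 at 18.4 ± 6.93 against 109.6 ± 26.3 and KLF7 at 19.0 ± 7.36 against 101.8 ± 13.9. KLF17, which marks naive human cells, did not exceed a group mean of 0.0467 TPM.

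Relatives of the other members were lower in clones 1 to 3 than in fibroblasts for TFAP2A, TBX2, TBX5 and ESRRA and higher for UBP1, TFCP2 and PRDM1, with levels compared as TPM, which corrects for length. TFAP2A, the AP-2 gene of skin and neural crest, was 16.7 ± 3.47 TPM in fibroblasts, where TFAP2C was 0.225 ± 0.257. In clones 1 to 3 TFAP2A was 0.655 ± 0.412 TPM (-5.20 ± 0.35, adjusted p = 3.79e-10), where TFAP2C was 18.9 ± 6.41. Both were present in endothelial libraries, with TFAP2A at 20.1 ± 4.29 TPM (5.36 ± 1.23 against day 0, 0.00522), and TFAP2B reached 7.79 ± 1.83 TPM there. TBX2 was 17.1 ± 9.09 TPM in fibroblasts and 0.0573 ± 0.0821 in clones 1 to 3 (-8.49 ± 0.68, 3.85e-09), and TBX5 was 2.33 ± 0.991 against 0.0100 ± 0.0126 TPM. In cardiomyocyte replicates 1 and 3 the mean of TBX5 was 10.8 TPM and that of TBX2 8.50 TPM, above the 1.37 TPM of TBX3. UBP1 and TFCP2, the CP2 relatives of TFCP2L1, were higher in clones 1 to 3: UBP1 stood at 80.6 ± 18.9 against 45.9 ± 4.07 TPM (0.66 ± 0.13) and TFCP2 at 19.8 ± 2.88 against 10.3 ± 2.13 (0.80 ± 0.12). ESRRA, the relative of ESRRB that is active in most tissues, was at 19.4 ± 5.45 TPM in clones 1 to 3 and 26.6 ± 3.96 in fibroblasts (-0.73 ± 0.17, 0.00113). In all, 3 of 12 relatives tested were higher in clones 1 to 3 and 4 lower, beside 38.6% and 35.9% of all genes, with a median of -1.14 beside 0.11.

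**Figure D4:**
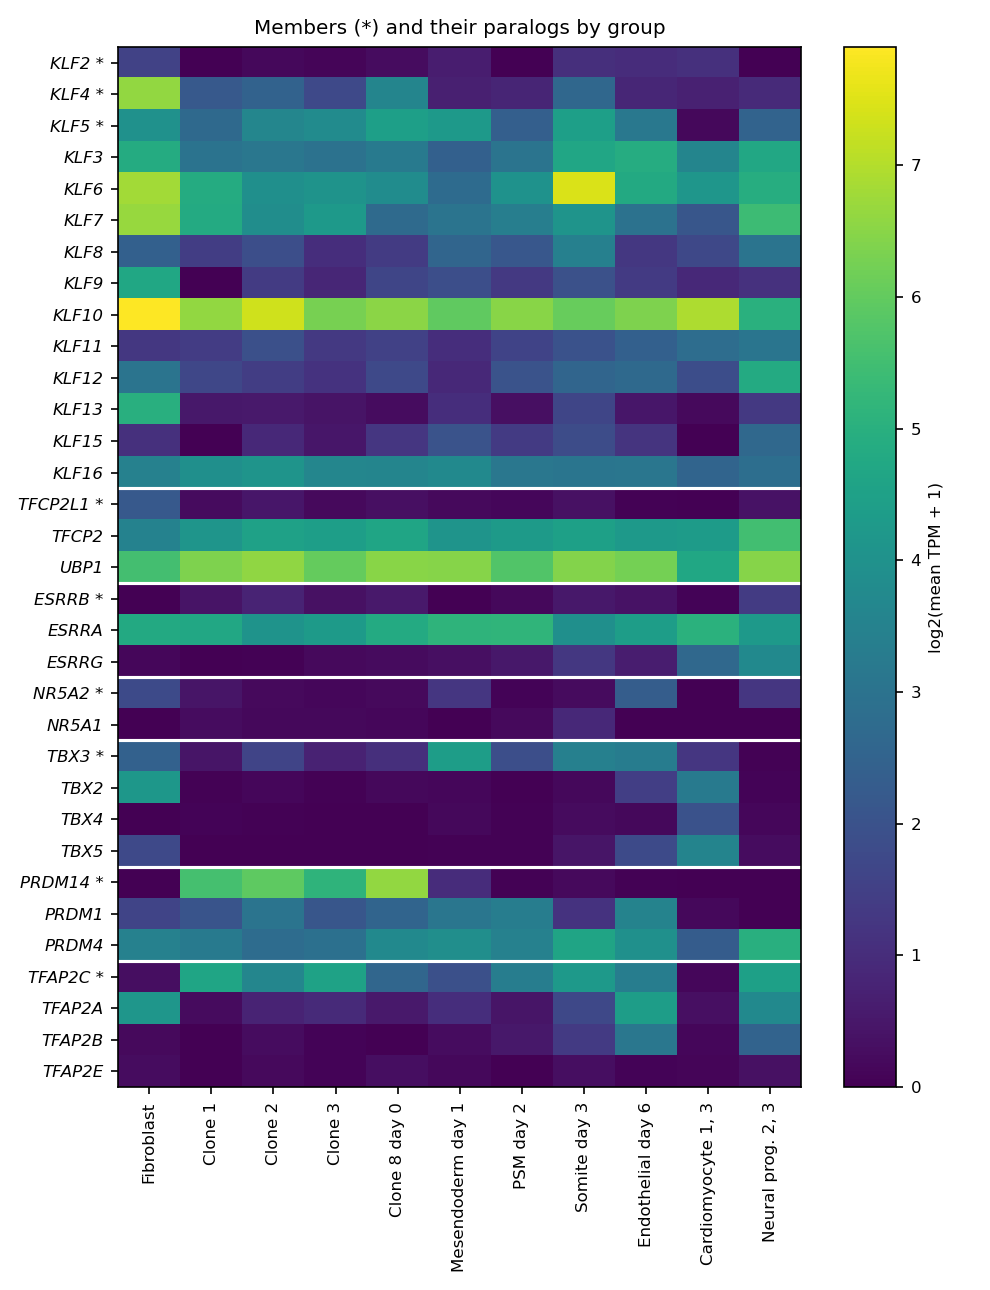
Group means as log2(mean TPM + 1) for the regulators (asterisks) and their relatives, by family; the cardiomyocyte and neural columns use the 2 libraries each that match their labels. TFAP2A and TFAP2C are seen at opposite levels in fibroblasts and undifferentiated clones, and PRDM14 is seen in the undifferentiated clones while PRDM1 is also seen elsewhere.

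Other genes associated with naive or early pluripotency were higher in iPSCs where they could be tested. Of 16 listed genes 9 passed the filter and all 9 were higher in clones 1 to 3, beside 38.6% of all genes (median log2 fold change 7.21, or 5.42 with genes absent from fibroblasts at their floor), but a gene near 0 in fibroblasts passes the filter through the clones. SALL4, a partner of OCT4, stood at 79.0 ± 13.9 against 0.235 ± 0.244 TPM and SOX15 at 21.4 ± 8.61 against 0.120 ± 0.139. CBFA2T2, a scaffold that binds PRDM14 in mouse, stood at 10.015 ± 3.40 against 4.40 ± 0.746 TPM (0.89 ± 0.19) and the growth factor gene FGF4 at 5.13 ± 2.58 TPM against 0. ZFP42, known as REX1 in mouse, stood at no more than a mean of 0.797 TPM in any group. DPPA5 was 60.2 ± 23.7 TPM in endothelial libraries and 0 in all 3 day 0 libraries, at least 123-fold higher (adjusted p = 0.000185).

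In the LIF, JAK and STAT3 pathway 4 of 16 tested genes were higher in clones 1 to 3 and 11 lower, beside 38.6% and 35.9% of all genes, with a median of -1.87 beside 0.11. JAK1, the kinase bound to the shared receptor, stood at 8.43 ± 1.49 against 130.0 ± 14.3 TPM (-4.07 ± 0.14, adjusted p = 5.69e-14). STAT3 stood at 28.0 ± 4.50 against 102.6 ± 32.3 TPM (-2.02 ± 0.17) and IL6ST, the shared receptor gp130, at 19.1 ± 2.63 against 55.0 ± 3.36 (-1.71 ± 0.10). PIM1, a target of STAT3, was higher, at 73.5 ± 15.7 against 27.2 ± 3.23 TPM (1.26 ± 0.13, 7.24e-08). PIM1 fell on day 1 to 3.80 ± 2.06 from 40.6 ± 4.22 TPM (-3.23 ± 0.33, 6.13e-06), in the comparison in which KLF4 and PRDM14 fell.

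PRDM14, DPPA3 and TFAP2C are also genes of primordial germ cells, and 6 other tested germ cell specification genes gave 5 higher and 1 lower in clones 1 to 3, beside 38.6% and 35.9% of all genes (median 3.07 beside 0.11). SOX17, DND1 and DDX4 were near 0 in fibroblasts and passed the filter through the clones, so the count is no support for a direction. TFAP2A and PRDM1 are also in the list of relatives. SOX17, an early germ cell determinant in human, stood at 53.3 ± 26.7 against 0.0800 ± 0.160 TPM, and KIT at 9.36 ± 5.43 against 1.36 ± 0.431. SOX17 is also among the 6 hypoblast and endoderm markers, which summed to 50.1 to 132 TPM in clones 1 to 3 and 4.99 to 7.75 in fibroblasts. Of these, FOXA2 was at a mean of 20.2 against 0.108 TPM and GATA6 was lower, at 4.21 against 6.24. The part of cells with such markers in the level of SOX17 was not tested. PRDM1, the relative of PRDM14 that represses somatic genes in germ cells, was at 4.65 ± 2.25 against 2.09 ± 0.575 TPM (0.90 ± 0.26, adjusted p = 0.00458). DND1, an RNA-binding protein of germ cells, was lowest in clone 2 among clones 1 to 3, at 30.0 ± 12.3 TPM in clone 1, 25.4 ± 2.41 in clone 3 and 0.840 ± 0.213 in clone 2 (5.34 ± 0.46 for clone 1 against clone 2, 4.02e-06). DDX4, a later germ cell gene, was at 1.09 ± 0.669 TPM in clones 1 to 3. DAZL did not exceed a group mean of 0.0667 TPM.

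Genes associated with primed pluripotency were abundant in the same libraries, with 9 of 12 higher in clones 1 to 3 and 3 lower, beside 38.6% and 35.9% of all genes, and a median of 8.21 (6.84 at the floor). Genes near 0 in fibroblasts passed the filter through the clones here too. DNMT3B, a de novo DNA methyltransferase that PRDM14 represses in mouse, stood at 1637 ± 588 against 1.19 ± 0.452 TPM. OTX2 stood at 56.2 ± 25.6 against 0.163 ± 0.188 TPM, SALL2 at 196.8 ± 33.2 against 2.36 ± 0.586 and ZIC2 at 57.0 ± 20.3 against 0.0675 ± 0.0780. On day 1 DNMT3B fell together with PRDM14, to 115 ± 34.2 from 1601 ± 109 TPM (-3.62 ± 0.49, adjusted p = 0.000118). The lower genes were THY1, also a fibroblast marker, SFRP2 and FGF5. FGF5, a classical primed marker in mouse, was at 14.9 ± 3.71 TPM in fibroblasts and 0.0373 ± 0.0671 in clones 1 to 3.

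For members with a group mean of at least 10 TPM, the genes of most similar profile were sought among 10653 genes over the 11 group means of log2(TPM + 1), as a description. For PRDM14 these were TNFSF11 (r = 0.983), CRHR1 (0.972) and KCNJ3 (0.972), and TNFSF11 reached 99.7 TPM in clone 8 on day 0. KLF4 was closest to FMNL1 (0.965), MKNK1 (0.960) and TMEM63A (0.957), all highest in fibroblasts. TBX3 was closest to the homeobox gene MSX2 (0.929), then ZNF703 (0.903) and MAN2A1 (0.871). TFAP2C was closest to NEK1 (0.926), SH3YL1 (0.912) and HIC2 (0.910), and KLF5 to ZDHHC5 (0.933), PPRC1 (0.917) and NFRKB (0.916). Without the 2 libraries that go against their labels, TNFSF11, MSX2, NEK1 and ZDHHC5 were still first for their members, while TMEM63A became first for KLF4 and ZNF703 moved to rank 23 for TBX3.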

How the data were processed

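Bulk RNA-seq of 36 pig libraries in 11 groups was used. Per the labels' protocols, total RNA (RNeasy Plus Mini) was turned into cDNA libraries by the LM-seq method, in which adapters are ligated. Bowtie 1.2.3, RSEM 1.2.3, bcl2fastq and the build Sscrofa11.1 are named in the submitters' processing notes. The authors deposited expected counts (estimated reads per gene) and TPM (counts per effective length, scaled to a fixed total per library) for 20683 genes. Whether strand was used is not given in the sources used here; overlapping genes and close paralogs may share reads. Gene IDs and coordinates are those of RefSeq on the same build.

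Groups and replicate numbers come from the labels (clone 1 has replicates 2 to 4). Of 42 pairs of libraries within groups 0 were identical, and each library counted as 1 replicate. Expected counts were rounded, which moved values by 0.00661% on average, and tested with edgeR 4.0.16 in R 4.3.3 (quasi-likelihood test, TMM scaling, filterByExpr with a minimum count of 10). Calls needed an adjusted p below 0.05 (Benjamini-Hochberg over all genes tested), with no minimum fold. Separate models covered fibroblasts with clones 1 to 3 (15 libraries), clone 8 (21 libraries) and all 36 libraries (clone 8 on day 0 against fibroblasts). Clones against fibroblasts weighted the clones equally. TPM values are means ± SD and entered no main test. For fold bounds, a group at 0 was given 3 counts in total, and ratios with 1 to 3 counts carry 95% intervals; both cover counting error only. The scripts were tested on simulated counts.

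The members and lists were chosen with earlier results of these data known. Named were all members, the 3 genes of most similar profile for each member reaching 10 TPM, and up to 4 genes per list and direction, those of highest group mean among genes that passed. KLF17, ZFP42, DDX4, DAZL, and TBX2 and TBX5 in cardiomyocytes were named after their values were seen. Listed genes not analysed here were LIFR, NANOS3 and CD24. Alternatives were RLE scaling, no filter, DESeq2 1.42.0, limma 3.58.1 on log2(TPM + 1) and log2(TPM + 0.1), the replicate number as a block, a fit of the compared groups alone, each pair of fibroblast libraries alone, leaving out each library, and leaving out the library labelled cardiomyocyte replicate 2 with that labelled neural progenitor replicate 1, which for comparisons other than cardiomyocyte and neural progenitor was added after the data were seen.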

Additional observations from a re-analysis of the deposited data

Results flagged for a closer look

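In groups of 4 libraries, 28 combinations of gene and group were examined for a library far from the others. Chance flags about 1 in 20 where values are normally distributed, a rate that need not hold for genes near 0. ESRRB was 0.04 TPM in fibroblast replicate 2 and 0 in the other 3, a pattern that the rule always flags. NR5A2 was 0.49 TPM in clone 2 replicate 1, where the nearest library had 0.09 TPM. Both levels are near the limit of detection.

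The effect against the same fibroblasts differed between clones for TFAP2C and PRDM14, tested by edgeR as the contrast of the clones. TFAP2C was higher in clone 1 than in clone 2 by 1.27 on the log2 scale, in 3 of 3 libraries above all 4, and the log2 fold change of clone 2 against clone 3 was -1.19, with no overlap. PRDM14 was higher in clone 2 than in clone 3 by 0.65, again with no overlap.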

How the results depend on the processing

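Of the results on called members under settings other than leaving out 1 library, 325 kept their direction and call, 14 lost the call and 1 reversed; with 1 library left out, 313 kept both and 37 lost the call. The causes were not tested. The reversal was KLF5 in clones against fibroblasts with fibroblast libraries 3 and 4 alone (0.095). Other reversals, of changes that had not passed, were KLF5 on day 0 against fibroblasts (by limma 0.56 with a pseudocount of 1 and 0.60 with 0.1, and 0.84 with fibroblast libraries 3 and 4) and on day 1 (-0.24 and -0.26 by limma), TFCP2L1 and ESRRB in clone 1 against clone 3 (-0.34 and -0.32 by limma on log2(TPM + 0.1)), TBX3 in cardiomyocytes (-0.23 and -0.94 by limma), TFAP2C in neural progenitors (-0.53 by limma on log2(TPM + 0.1)) and NR5A2 in cardiomyocytes (-4.11 without the 2 libraries that go against their labels).

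Replicate numbers were not treated as pairs in the main fits, since no label ties libraries of the same number together. No comparison had a correlation of deviations over 0.1 in every pair. On days 1 and 2, however, 2 of 3 pairs were over it, with ranges of 0.0741 to 0.242 and 0.088 to 0.362; the lowest value, in clones 2 and 3, was -0.124. With the replicate number as a block, TFCP2L1 and ESRRB in clone 1 against clone 3 came to -0.56 and -0.51, NR5A2 in clone 2 against clone 3 to -0.69 and TBX3 in cardiomyocytes to -0.019, DPPA3 was no longer called in endothelial cells (adjusted p = 0.0656) and no other called member lost its call.

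The number of members passing was 2 by DESeq2, 3 by limma with a pseudocount of 1 and 2 with 0.1 for clone 1 against clone 2 (main 1), 2 by DESeq2 for clone 1 against clone 3 (main 0), and 1 by limma on log2(TPM + 0.1) for clone 2 against clone 3 (main 2). On day 1 (main 3) it was 5 by limma on log2(TPM + 1), 5 with the compared groups alone and 7 without the 2 libraries. On day 2 (main 2) it was 1 with no filter, 4 by DESeq2, 1 by limma on log2(TPM + 0.1), 4 with the compared groups alone and 5 without the 2 libraries. On day 3 (main 1) it was 2 by DESeq2, 3 by limma on log2(TPM + 1), and 4 with the compared groups alone or without the 2 libraries. Without them it was 7 in endothelial cells (main 5) and 7 in neural progenitors (main 4).

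With each library left out in turn, members passing ranged from 9 to 10 for clones and 6 to 9 for clone 8 against fibroblasts, 1 to 2, 0 to 0 and 0 to 2 for clones 1 and 2, 1 and 3, and 2 and 3, 3 to 3 on day 1, 0 to 1 on days 2 and 3, 2 to 4 in endothelial cells, and 4 to 5 in cardiomyocytes and neural progenitors. Log2 fold changes that crossed 0 ranged from -0.54 to 0.24 (KLF4) and -3.60 to 2.88 (NR5A2) for clones 1 and 2; -5.58 to 0.67 (TFCP2L1), -1.53 to 0.79 (ESRRB) and -3.20 to 2.52 (NR5A2) for clones 1 and 3; -0.75 to 1.42 (KLF2) and -1.38 to 1.43 (NR5A2) for clones 2 and 3; -0.21 to 0.23 (KLF5, day 1), -0.26 to 1.69 (NR5A2, day 3) and -0.92 to 0.37 (ESRRB, endothelial); -4.11 to 1.82 (NR5A2), -0.66 to 0.70 (TBX3) and -5.19 to 0.40 (TFAP2C) in cardiomyocytes; and -0.30 to 0.19 for KLF5 on day 0 against fibroblasts. None of these had passed.

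Over all genes, calls rose under DESeq2 from 1365 to 2247, 982 to 1877 and 618 to 1243 for clones 1 and 2, 1 and 3, and 2 and 3, and from 1053 to 1695 on day 2. Without the 2 libraries they rose from 1808 to 5415, 1053 to 3460 and 3374 to 7011 on days 1, 2 and 3, from 2752 to 6532 in endothelial cells, from 5940 to 8934 in cardiomyocytes and from 6087 to 9236 in neural progenitors. With the compared groups alone they were 2561 for clones 2 and 3, 4752, 2165 and 6421 on days 1 to 3, 7704 in endothelial cells, 3764 in cardiomyocytes and 3476 in neural progenitors. With 1 library left out they ranged from 643 to 1757, 435 to 1332 and 330 to 549 for clones 1 and 2, 1 and 3, and 2 and 3, from 996 to 1595, 526 to 693 and 2212 to 2727 on days 1, 2 and 3, and from 1789 to 1970 in endothelial cells, so the shares of all genes printed beside the members' counts move with them. The lowest counts were without clone 2 replicate 3 (643 and 330), clone 3 replicate 3, day 1 replicate 3, day 2 replicate 2, day 3 replicate 1 and day 0 replicate 3. Higher and lower calls split differently under limma on log2(TPM + 1): from 655 and 710 to 386 and 1406 for clones 1 and 2, from 302 and 316 to 846 and 206 for clones 2 and 3, from 788 and 1020 to 510 and 1328 on day 1, from 1782 and 1592 to 2175 and 1255 on day 3, from 3262 and 2678 to 2149 and 3453 in cardiomyocytes, and from 5148 and 4176 to 6025 and 3150 for day 0 against fibroblasts. Depth in clone 8 limits what can be said of KLF2, TFCP2L1, ESRRB and NR5A2, which rest on few reads there.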
